A study of Mus musculus with 24 samples.

Results

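Bile is made by transporters that sit on opposite faces of the hepatocyte, and 10 of their transcripts were followed here in the liver and duodenum of Hfe-/- (knockout) and wild-type mice. Hfe encodes a membrane protein through which hepatocytes adjust hepcidin, the hormone that limits iron uptake, and its loss causes iron loading. The 10 genes were Slc10a1, Slco1a1, Slco1b2, Abcb11, Abcb4, Abcc2, Abcc3, Abcg2, Abcg5 and Abcg8, picked by gene symbol, out of 13006 genes tested. Their 16 probe sets were all above the signal filter, out of 28061 probe sets kept from the 45101 on the array.

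The samples were D2 (DBA/2) Hfe-/-, D2 wild-type, B6 (C57BL/6) Hfe-/- and B6 wild-type male mice of 7 weeks, 3 mice per group, with 3 liver and 3 duodenum arrays for each group, 24 arrays in all. Both knockouts were germline, so Hfe was lost in every tissue. The knockouts were bred in the study's own animal house and the wild-type mice were bought, so that genotype and origin cannot be told apart. D2 and B6 are known to differ in iron handling, and the comparisons ask how transporter transcripts differ with Hfe, with strain and with tissue. The groups are written as D2 KO, D2 WT, B6 KO and B6 WT, with the replicate number of the array after the group where 1 array is meant.

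Hepatocytes take bile acids and other organic anions from portal blood through carriers on the sinusoidal face, chiefly Slc10a1 (NTCP) and the Slco family (OATP). ATP-driven pumps on the canalicular face then move bile acids, phosphatidylcholine, conjugates, drugs and sterols into bile. When bile flow is hindered, the liver is known to lower its uptake carriers and to raise pumps that return conjugates to blood, and bile acid receptors such as Nr1h4 (FXR) drive Abcb11. In the intestine, Abcc2, Abcg2 and the Abcg5 and Abcg8 pair face the gut lumen and return drugs and plant sterols to it.

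The deposited value of a probe set is its MAS5 signal, an Affymetrix measure of brightness on a linear scale that the authors set to a common mean of 100 on every array. The median signal of an array was between 15.8 and 23.4, and a signal under 20 was treated as near background. Hepatocyte markers were high in liver (4 measured of 5, mean log2 signal 13.2 to 13.6 over the 12 liver arrays) and enterocyte markers were high in duodenum (5 of 6, up to 11.7, against at most 4.90 in liver), as labelled. Cholangiocyte markers were near background in liver (4 of 5, 2.99 to 4.19). Hfe itself lay between 70.4 and 98.8 in knockout livers and between 434 and 691 in wild-type livers. Within a group, arrays correlated at r = 0.923 to 0.965 over the probe sets kept. The arrays were hybridized over 5 runs, and the 3 D2 KO livers shared run 2 with only 1 of the D2 WT livers. In duodenum, markers of pancreatic acinar cells (10 measured of 12) had mean log2 signals of 13.2, 6.58 and 7.88 on the D2 KO arrays, against 12.1, 11.3 and 12.6 on the D2 WT arrays. In whole tissue, fewer cells of a type and less RNA per cell cannot be told apart.

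The sequence upstream of the 4 transcripts that were called in liver knockout or strain comparisons and that have a promoter window is shown first. A promoter window was at hand for 9 of the 10 genes, 13 windows in all, and Abcc3 is named only. The 5 motifs named below were searched on both strands in the 250 bases before each start. The bases come from RefSeq on GRCm38.p6, an assembly of the B6 strain, and D2 sequence was not used. Capitals mark motif matches on either strand. The nuclear receptor half-site was searched as AGGTCA. The TATA box of core promoters was searched as TATAAA. The core of the xenobiotic response element was searched as GCGTG. The core of the antioxidant response element was searched as TGACNNNGC, with any base at N. The half-site of the hepatocyte factor HNF1 was searched as GTTAAT. Each line reads in the direction of transcription.
Slco1a1, chr6:141946963-141947112, minus strand: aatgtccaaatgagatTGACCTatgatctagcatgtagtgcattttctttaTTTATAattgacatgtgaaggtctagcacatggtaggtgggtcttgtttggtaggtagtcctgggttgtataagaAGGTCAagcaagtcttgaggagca
Abcb11, chr2:69342617-69342766, minus strand: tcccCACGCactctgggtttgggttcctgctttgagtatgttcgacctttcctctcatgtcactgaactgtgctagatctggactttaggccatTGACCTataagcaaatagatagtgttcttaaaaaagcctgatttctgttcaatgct
Abcg2, chr6:58584341-58584490, plus strand: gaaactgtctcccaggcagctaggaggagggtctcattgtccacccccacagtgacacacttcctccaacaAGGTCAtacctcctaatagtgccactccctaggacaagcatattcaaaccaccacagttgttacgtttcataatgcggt
Abcc2, chr19:43782158-43782307, plus strand: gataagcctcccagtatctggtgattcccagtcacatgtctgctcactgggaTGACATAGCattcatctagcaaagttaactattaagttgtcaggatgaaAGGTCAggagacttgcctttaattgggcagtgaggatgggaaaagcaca

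The nuclear receptor half-site was found in 7 of the 13 windows, belonging to 6 genes, and in 14.0% of all 32851 windows of the same length. The TATA box was found in 5 of 13 (12.4% of all), the xenobiotic core in 3 of 13 (28.2%), the antioxidant core in 1 of 13 (10.2%) and the HNF1 half-site in 1 of 13 (6.43%). The TATA box match of Abcg5 and that of the first start of Abcg8 are the same bases, counted in both windows. No match of 1 motif overlapped a match of another. Slco1a1 held half-sites 134 and 24 bases before its start, Abcb11 held 1 at 56 bases and Abcc2 held 1 at 49 bases. Abcg2 has 3 annotated starts, and the first of them is at 58584533. The stretch shown stops short of it, at 58584490, and its marked half-site lies 121 bases before that start, not before the end of the line. These matches describe letters in a window and were not tested as binding sites.

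In D2 liver, 4 of the 10 transcripts differed between knockout and wild-type mice. Slco1a1, Abcb11 and Abcg2 rose and Abcc3 fell, at an adjusted p of at most 0.1 in limma, while 6 did not pass. Over all genes, 3.3% were called in this comparison (429 of 13006). The 10 were chosen with earlier results of these data known, so the shares are descriptions and not a test of enrichment. The median log2 change of the 10 transcripts was 0.03, against 0.02 over all genes. In B6 liver none of the 10 passed in limma, where 3 had an unadjusted p under 0.05 and 1.15% of all genes were called, with a median log2 change of 0.05 against -0.00236 over all genes. The difference between the strains in the knockout effect was not called for any of the 10 in limma, with 4 at an unadjusted p under 0.05, where 0.223% of all genes were called.

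**Figure D1:**
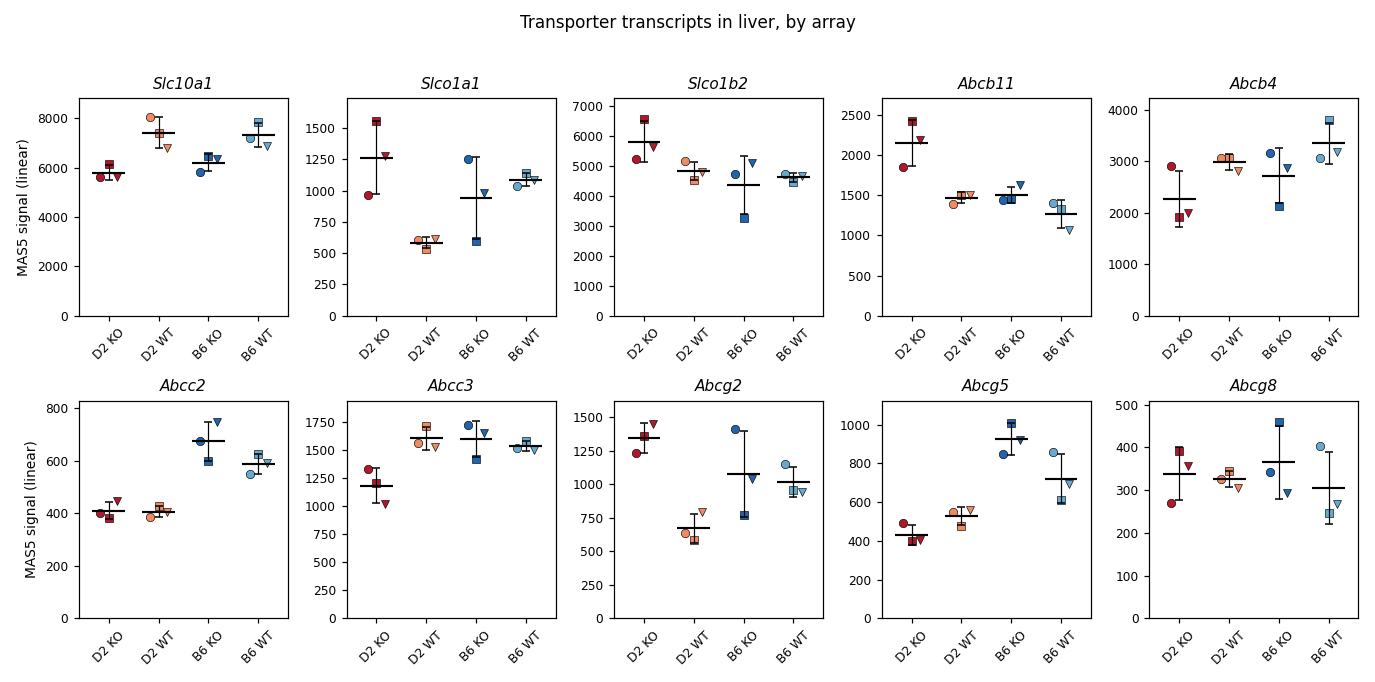
MAS5 signal (linear, y axis from 0) of the 10 transcripts on each of the 12 liver arrays, by group (D2 KO, D2 WT, B6 KO, B6 WT), with circles, squares and triangles for replicates 1, 2 and 3, horizontal lines for means and error bars for the SD. The 3 D2 KO arrays lie above all 3 D2 WT arrays for Slco1a1 (965 to 1556 against 533 to 612) and Abcg2 (1232 to 1453 against 584 to 791).

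Among the uptake carriers, Slc10a1 brings conjugated bile acids into the hepatocyte together with sodium. Its signal was 5629, 6147 and 5623 on the D2 KO arrays, against 8035, 7414 and 6776 on the D2 WT arrays. In B6 it was 5829, 6451 and 6339 on the KO arrays, against 7211, 7833 and 6869.7 on the WT arrays. Every knockout array was therefore below every wild-type array of its strain. The log2 difference was -0.35 ± 0.0982 (SE) in D2 (limma adjusted p = 0.102) and -0.23 ± 0.0982 in B6 (0.373), neither of which was called. A further probe set of Slc10a1 gave -0.31 in D2 (adjusted p = 0.106) and -0.18 in B6 (0.461). The D2 result lay at the edge of the threshold, and its adjusted p ran from 0.0358 to 0.772 over the alternatives, with 5 of 21 alternatives under 0.1. Within run 2, where 3 KO arrays met 1 WT array, the D2 difference was -0.23.

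Slco1a1 (OATP1A1) carries sulfated steroids, bile acids and drugs into the hepatocyte, and is known in mice to be higher in males. In D2 it had signals of 965, 1556 and 1274 on the KO arrays, against 604, 533 and 612 on the WT arrays. The lowest KO array was thus well above the highest WT array, and the mean was 1265 ± 295 in D2 KO and 583 ± 43.3 in D2 WT (SD, n = 3 each). This was a 2.13-fold rise, with a log2 difference of 1.09 ± 0.207 (SE, 95% interval 0.65 to 1.54, limma adjusted p = 0.0191). A second probe set of Slco1a1 read 2284 ± 416 in D2 KO and 1245 ± 193 in D2 WT, with a log2 difference of 0.87 (adjusted p = 0.0208). Without D2 KO 2 the difference was 0.93 and the call was lost, with an adjusted p of 0.103 (0.00172 to 0.172 over all alternatives). The call was also lost when the spread was moderated without a mean trend (adjusted p = 0.172). In B6 the KO arrays read 1251, 600.4 and 979, against 1036, 1139.6 and 1088 on the WT arrays. The B6 groups overlapped, and the log2 difference was -0.27 with a 95% interval of -0.71 to 0.17. The D2 effect minus the B6 effect was 1.36 ± 0.293 (SE, adjusted p = 0.121), not called at 0.1. It was called in 5 of 20 alternatives, among them that without B6 KO 1 (1.60, adjusted p = 0.032) and that without D2 KO 1 (1.54, 0.0166), with adjusted p values of 0.0166 to 0.585 over all of them. With the run as a block it was 0.86 (adjusted p = 0.585), where the D2 effect was 1.02 and the B6 effect 0.16, opposite in sign to the B6 value without the block. By the second probe set it was 1.15 (adjusted p = 0.104).

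Slco1b2 (OATP1B2) takes up bilirubin, bile acids and toxins such as phalloidin. Its signal was 5229, 6564 and 5629.6 on the D2 KO arrays, against 5154, 4526 and 4809 on the D2 WT arrays, so that the KO arrays lay just above. The log2 difference was 0.26 (95% interval -0.04 to 0.56, limma adjusted p = 0.459), and -0.11 in B6 (-0.41 to 0.19). Of its 5 probe sets, 2 were near background in liver, and none of the others was called in either strain.

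Abcb11 (BSEP) is the canalicular pump that moves bile acids into bile, the step that limits bile acid secretion. Its D2 KO arrays read 1845, 2418 and 2191, against 1396, 1505 and 1508 on the D2 WT arrays. All KO arrays were above all WT arrays, and the transcript rose 1.46-fold, a log2 difference of 0.54 ± 0.114 (SE, limma adjusted p = 0.0303). In B6 the KO arrays read 1437, 1449 and 1624, against 1401, 1323 and 1072 on the WT arrays. There too the KO arrays lay above, with a log2 difference of 0.26 ± 0.114 (95% interval 0.01 to 0.50) and an adjusted p of 0.402, not called. The strain difference of the effect was 0.29 (95% interval -0.06 to 0.63, adjusted p = 0.599). The D2 call was lost with the run as a block (0.50, adjusted p = 0.413) and when the spread was moderated without a mean trend (0.197). It was also lost on leaving out D2 KO 2 (0.156), D2 KO 3 (0.133) or D2 WT 1 (0.133). Adjusted p values were 0.0043 to 0.413 over all alternatives. Within run 2 the D2 difference was 0.50.

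Abcb4 (MDR2) flips phosphatidylcholine into bile, which shields the bile ducts from bile acids. Its D2 KO arrays read 2902, 1915 and 1985, against 3071, 3069 and 2805 on the D2 WT arrays. D2 KO 1 lay between the WT arrays and the other KO arrays below them, and the log2 difference of -0.42 ± 0.161 (SE) was not called (limma adjusted p = 0.259). Without D2 KO 1 it was -0.61 and called (adjusted p = 0.0253, with 0.0253 to 0.785 over all alternatives). In B6 the KO arrays read 3164, 2132 and 2861, against 3070.3, 3808 and 3169 on the WT arrays, a log2 difference of -0.31 (95% interval -0.66 to 0.03). Abcb4 and Abcb11 stand side by side on the canalicular face, and their differences had opposite signs in both strains.

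Abcc2 (MRP2) pumps conjugated bilirubin and glutathione conjugates into bile. It read 402, 382 and 448 on the D2 KO arrays, against 385, 428 and 405 on the D2 WT arrays, with a log2 difference of 0.01 (95% interval -0.20 to 0.23). In B6 it read 676, 599 and 748 on the KO arrays, against 548, 625 and 591 on the WT arrays, with a log2 difference of 0.19 (-0.02 to 0.41). The groups overlapped in both strains. Abcc3 (MRP3) works on the opposite face and sends conjugates back to blood. It read 1329, 1202 and 1015 on the D2 KO arrays, against 1565, 1716 and 1523 on the D2 WT arrays. Every KO array was below every WT array, and Abcc3 fell 1.36-fold (log2 difference -0.45 ± 0.104 SE, limma adjusted p = 0.0497). In B6 the KO arrays read 1724, 1421 and 1652, against 1521, 1583 and 1501 on the WT arrays, a log2 difference of 0.05 (95% interval -0.17 to 0.28). The strain difference of the effect was -0.50 ± 0.147 (adjusted p = 0.244), called only without D2 KO 1 (-0.59, 0.0602). The D2 call was lost with the run as a block (-0.37, adjusted p = 0.519) and when the spread was moderated without a mean trend (0.233). It was also lost on leaving out D2 KO 2, D2 KO 3, D2 WT 1 or D2 WT 2. Adjusted p values were 0.00957 to 0.519 over all alternatives.

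**Figure D2:**
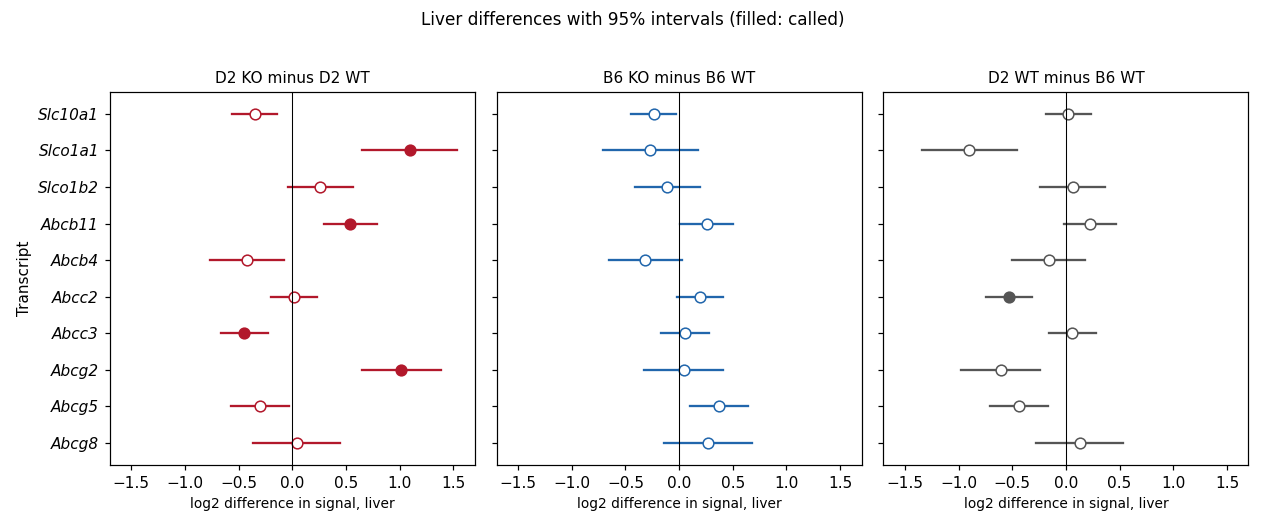
Log2 difference in liver signal (x axis) of each transcript for D2 KO minus D2 WT, B6 KO minus B6 WT and D2 WT minus B6 WT, with 95% intervals of the limma fit as bars and filled points for called differences. Slco1a1 (1.09) and Abcg2 (1.02) stand farthest to the right in D2, and their B6 intervals include 0.

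Abcg2 (BCRP) exports drugs, urate and porphyrins, including protoporphyrin IX, the last precursor of heme. Its D2 KO arrays read 1232, 1358 and 1453, against 635, 584 and 791 on the D2 WT arrays. The groups were far apart, with means of 1347 ± 111 in D2 KO and 669.9 ± 108 in D2 WT (SD, n = 3 each). Abcg2 rose 2.02-fold (log2 difference 1.02 ± 0.172 SE, 95% interval 0.65 to 1.38, limma adjusted p = 0.00983), the smallest adjusted p among the 10 transcripts in this comparison. The call held in 20 of 21 alternatives and was lost when the spread was moderated without a mean trend (adjusted p = 0.134, with 0.00172 to 0.134 over all alternatives). With the run as a block the difference was 0.76. In B6 the KO arrays read 1413, 773 and 1041, against 1148, 959 and 946 on the WT arrays. The B6 KO arrays spread on both sides of the WT arrays, with a log2 difference of 0.04 (95% interval -0.32 to 0.41). The D2 effect minus the B6 effect was 0.97 ± 0.243 (SE, adjusted p = 0.179), not called, and was called on leaving out B6 KO 1 (1.19, adjusted p = 0.0361) or D2 KO 1 (1.04, 0.0722), with 0.0361 to 0.85 over all alternatives. With the run as a block it was 0.37 (adjusted p = 0.85), since the B6 effect was then 0.40 beside the 0.76 in D2. Alas2, the heme synthesis enzyme of red cell precursors and the measured 1 of 3 erythroid markers, rose beside it, with signals of 1569.6, 2189 and 1931 on D2 KO arrays against 773, 704 and 1018 on D2 WT arrays, and its part in the Abcg2 result was not tested.

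Abcg5 and Abcg8 join to form 1 sterol pump, which sends cholesterol and plant sterols into bile and into the gut. Abcg5 read 491, 399 and 402 on the D2 KO arrays, against 551, 474 and 559 on the D2 WT arrays. In B6 it read 846, 1009 and 919 on the KO arrays, against 861, 610.0 and 691 on the WT arrays. The log2 difference was -0.30 ± 0.127 (SE, limma adjusted p = 0.319) in D2 and 0.37 ± 0.127 (0.264) in B6, so that the signs were opposite and neither was called. The strain difference of the effect was -0.67 ± 0.18 (adjusted p = 0.205), called only without D2 KO 1 (-0.77, 0.0538). Abcg8 read 270.0, 390.5 and 356 on the D2 KO arrays, against 326, 345 and 306 on the D2 WT arrays, a log2 difference of 0.04 (95% interval -0.36 to 0.45). In B6 it read 341, 459.6 and 294 on the KO arrays, against 403, 246 and 267 on the WT arrays, a log2 difference of 0.27 (-0.14 to 0.68).

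The array B6 KO 2 liver was hybridized alone in run 4. It was the lowest of its group for 6 of the 10 transcripts (Slco1a1, Slco1b2, Abcb4, Abcc2, Abcc3 and Abcg2) and the highest for 3 (Slc10a1, Abcg5 and Abcg8). Over the 5896 genes with a geometric mean liver signal of at least 100, it was the lowest of its group in 36.1% and the highest in 32.2%. Without it, none of the 10 transcripts was called in B6 either.

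The genes whose liver profile was most like that of a called transcript were taken from the 5969 other genes with a mean liver signal of at least 100, by Pearson correlation of log2 signal over the 12 liver arrays. These arrays share groups and runs, so the values are descriptions. For Slco1a1 they were Serpina12 (r = 0.979), Otc (0.958) and Cyp7b1 (0.935). Serpina12, an adipokine also called vaspin, had a mean of 1029 in D2 KO and 98.2 in D2 WT livers. For Abcg2 they were Pdia6 (0.947), Nox4 (0.945) and Selenof (0.944), of which Pdia6, a protein disulfide isomerase of the endoplasmic reticulum, had a mean of 1305 in D2 KO and 591 in D2 WT livers. For Abcb11 they were Slc39a11 (0.977), Exoc5 (0.944) and Hes6 (0.942). For Abcc3 they were Ostf1 (0.926), Eif2a (0.915) and Mybbp1a (0.897).

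The strains differed before any loss of Hfe. Abcc2 was lower in D2 WT livers than in B6 WT livers, with signals of 385, 428 and 405 on the D2 WT arrays, against 548, 625 and 591 on the B6 WT arrays. Its log2 difference was -0.53 ± 0.0998 (SE, limma adjusted p = 0.00305), and it was the 1 transcript of the 10 called at the adjusted p of at most 0.01 used for strains, where 5.04% of all genes were called. The median log2 difference of the 10 was -0.07, against 0.02 over all genes. The call was lost with the run as a block (-0.61, adjusted p = 0.0136) and when the spread was moderated without a mean trend (0.0324). It was also lost without B6 WT 2, B6 WT 3, D2 WT 1 or D2 WT 3. Adjusted p values were 0.00198 to 0.0324 over all alternatives. Within run 1, where 1 D2 WT array met 3 B6 WT arrays, the difference was -0.61. Slco1a1 (583 ± 43.3 in D2 WT and 1088 ± 52.0 in B6 WT, log2 difference -0.90, adjusted p = 0.0124), Abcg2 (-0.61, 0.0404) and Abcg5 (-0.44, 0.0462) also had every D2 WT array below every B6 WT array, without passing. Slco1a1 passed in 7 of 21 alternatives, with adjusted p values of 3.43e-05 to 0.083. The same D2 WT arrays served in the D2 knockout comparison, so these strain differences and the D2 knockout effects are not independent. D2 WT had the lowest mean of the liver groups for Slco1a1 (B6 KO 943, D2 KO 1265). The same held for Abcg2 (D2 WT 670, B6 WT 1018, B6 KO 1076, D2 KO 1347).

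In duodenum, the 5 transcripts Slc10a1, Slco1a1, Slco1b2, Abcb11 and Abcb4 were near background (Abcb4 up to 31.5 in wild-type mice), and 5 were well measured. None of the 10 was called between knockout and wild-type duodena of either strain in limma. Those near background had wide 95% intervals, such as -2.82 to 3.00 for Abcb11 in D2, so an absence of change was not shown. In D2, 1 of 10 (Abcg2) had an unadjusted p under 0.05, and 0.484% of all genes were called. The median log2 change was 0.22 over the 10, which include the 5 near background, against 0.01 over all genes. In B6 duodenum none of the 10 had an unadjusted p under 0.05, and 0.00769% of all genes were called (1 gene). The strain difference of the effect was called for none of the 10, with none at an unadjusted p under 0.05, where 0.0154% of all genes were called.

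**Figure D3:**
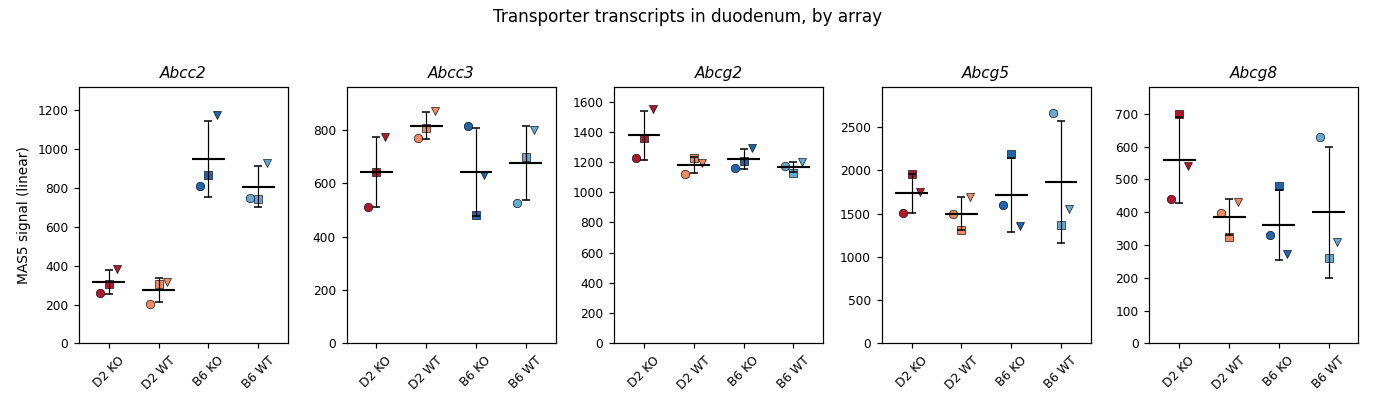
MAS5 signal (linear, y axis from 0) of the 5 transcripts above background on each of the 12 duodenum arrays, by group, with circles, squares and triangles for replicates 1, 2 and 3, lines for means and error bars for the SD. All 6 D2 arrays lie below all 6 B6 arrays for Abcc2 (204 to 384 against 746 to 1174), while genotypes overlap except for Abcg8 in D2.

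Abcg8 read 440.3, 699 and 540.0 on the D2 KO arrays, against 397, 325 and 432 on the D2 WT arrays. The KO arrays lay above, but the log2 difference of 0.53 ± 0.293 (SE) had a 95% interval of -0.11 to 1.16 (limma adjusted p = 0.512). Abcg2 read 1225, 1358 and 1549 on the D2 KO arrays, against 1121, 1230.1 and 1191 on the D2 WT arrays, with a log2 difference of 0.22 (0.02 to 0.41, adjusted p = 0.374). The 2-fold rise of Abcg2 in D2 liver lies outside that interval, though the tissues were not set against each other in 1 test. Abcc3 had a log2 difference of -0.36 in D2 (-0.79 to 0.07) and Abcg5 one of 0.21 (-0.28 to 0.70). With the acinar marker level as a covariate, or without D2 KO 2 and D2 KO 3, whose acinar markers were low, no transcript was called in the D2 knockout comparison either.

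Abcc2 was the transcript that set the strains apart in duodenum. It read 204, 303 and 315 on the D2 WT arrays, against 747, 746 and 930.0 on the B6 WT arrays, and the means were 274 ± 61.1 in D2 WT and 808 ± 106 in B6 WT (SD, n = 3 each). The log2 difference was -1.58 ± 0.193 (SE, limma adjusted p = 0.000201), the 1 call among the 10, where 3.31% of all genes were called. The KO arrays showed the same order, with 261, 306 and 384 in D2 KO and 811, 869 and 1174 in B6 KO. All D2 arrays but none of the B6 WT arrays were in run 3, and with the run as a block the difference was -1.89 and no longer passed (adjusted p = 0.0232). With the acinar marker level as a covariate it was -1.53 and passed. The other 9 transcripts had no called difference between D2 WT and B6 WT duodenum. The median over the 10, which include those near background, was 0.11, against 0.01 over all genes. The probe set of Abcc2 is the only one of the gene here and is of a type that can match more than 1 transcript. Whether the sequence under the probes differs between D2 and B6 was not checked, for Abcc2 or for any other gene.

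Set by tissue, the 10 transcripts fell into a liver group and a shared group. Slc10a1 read 6776 to 8035 in D2 WT livers and averaged 7.99 ± 3.48 in D2 WT duodena (SD, n = 3). Where every duodenum array was under a signal of 20, the geometric mean of the liver signals was set against 20 as a lower bound. This made Slc10a1 at least 369.5-fold higher in D2 WT liver and at least 365-fold in B6 WT liver. On the same footing Slco1b2 was at least 241-fold and 231-fold, Abcb11 at least 73.4-fold and 62.9-fold and Slco1a1 at least 29.1-fold and 54.3-fold higher, in D2 WT and B6 WT liver. Abcb4 averaged 2981 ± 153 in D2 WT liver and 21.3 ± 9.59 in D2 WT duodenum, where 2 of 3 arrays were under 20, and 3349 ± 401 in B6 WT liver and 17.3 ± 5.64 in B6 WT duodenum, where 1 of 3 was, so that no fold is given. Of the 10, 7 were higher and 2 lower in D2 WT liver than in D2 WT duodenum at an adjusted p of at most 0.01, where 51.2% of all genes were called. In B6 WT mice 6 were higher and 1 lower, where 51.7% of all genes were called. The filter kept a probe set on its signal in either tissue. Slc10a1, Slco1a1, Slco1b2 and Abcb11 passed it through liver alone, so their place among the higher transcripts followed from the filter and was not a test.

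**Figure D4:**
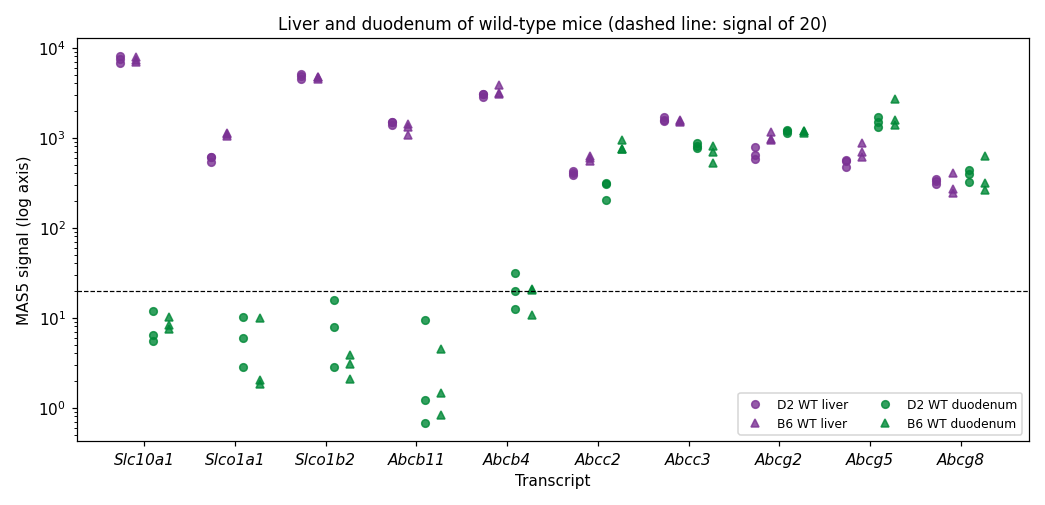
MAS5 signal (log axis) of the 10 transcripts in wild-type liver and duodenum, 3 arrays per strain and tissue, with circles for D2 WT and triangles for B6 WT and a dashed line at a signal of 20. The liver reads above 500 and the duodenum below 20 on every array for Slc10a1, Slco1a1, Slco1b2 and Abcb11.

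The shared group differed more between its members. Abcc3 averaged 1602 ± 101 in D2 WT liver and 815 ± 51.0 in D2 WT duodenum, a log2 difference of 0.98 (limma adjusted p = 4.1e-05), and in B6 WT it was 1.21 (2.68e-06). Abcg5 ran the other way, at 528 ± 46.9 in D2 WT liver and 1498 ± 191 in D2 WT duodenum, a log2 difference of -1.50 (1.32e-06), and in B6 WT it was -1.32 (6.98e-06). Its partner Abcg8 had log2 differences of -0.23 (95% interval -0.80 to 0.34) in D2 WT and -0.32 (-0.89 to 0.25) in B6 WT, neither called. Abcg2 was lower in D2 WT liver, with means of 669.9 ± 108 in liver and 1181 ± 55.3 in duodenum and a log2 difference of -0.83 (7.89e-05), while in B6 WT it was -0.20 (-0.52 to 0.11, adjusted p = 0.265). With the run as a block 5 calls were lost. Abcg5 was then -1.31 in D2 WT (adjusted p = 0.0386) and -1.22 in B6 WT (0.0324), and Abcc2 was 0.91 in D2 WT (0.0612). Abcc3 was 0.35 in D2 WT (0.491) and Abcg2 was -0.47 (0.107), both smaller by over 1.5 times.

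Abcc2 had opposite tissue orders in the 2 strains. D2 WT livers read 385 to 428 and D2 WT duodena 204 to 315, a log2 difference of 0.59 ± 0.163 (SE, limma adjusted p = 0.00388), so that liver was the higher. B6 WT livers read 548 to 625 and B6 WT duodena 746 to 930.0, a log2 difference of -0.45 ± 0.163 (adjusted p = 0.0228), with every duodenum array above every liver array but no call. The D2 call held in 28 of 33 alternatives (adjusted p 0.00117 to 0.0612), and the B6 difference passed in 4 of 33 (0.00732 to 0.402). The D2 difference minus the B6 difference, a comparison added after these values were seen, was 1.05 ± 0.23 (95% interval 0.57 to 1.52, adjusted p = 0.0155), not called at 0.01, where 1.37% of all genes were called and none of the 10, with 2 at an unadjusted p under 0.05 (Abcc2 and Abcg2). It passed in 3 of 32 alternatives, with adjusted p values of 0.00811 to 0.206.

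Abcg5 and Abcg8 lie head to head on chromosome 17 of GRCm38.p6, with Abcg5 read from 84683011 on the minus strand and Abcg8 from 84683121 on the plus strand. Abcg8 has a second annotated start at 84676302, inside Abcg5, so that the genes overlap. The 109 bases between the starts are shown because Abcg5 and the first annotated start of Abcg8 flank them, with the TATA box match (TTTATA) in capitals, read on the plus strand towards Abcg8.
Abcg5 to Abcg8, chr17:84683012-84683120: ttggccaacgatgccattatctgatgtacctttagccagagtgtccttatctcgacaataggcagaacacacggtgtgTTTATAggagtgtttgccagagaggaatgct
In duodenum the 2 transcripts went together from array to array, a relation looked at after the values were seen. Over the 12 duodenum arrays Pearson's r of their log2 signals was 0.80 (permutation p = 0.00119, adjusted over 4 relations 0.00476) and Spearman's rho was 0.825 (0.00149, adjusted 0.00596). Without the 2 arrays farthest from the median of Abcg5, r was 0.854. Within run 3, which held 8 of these arrays, r was 0.79 (exact permutation p = 0.0193, adjusted 0.0386) and rho 0.881 (0.00724, adjusted 0.0145). In each of the 4 duodenum groups the 3 arrays had the same order for both transcripts, and among 6427 genes compared Abcg8 ranked 20 in likeness to Abcg5. Enterocyte markers gave that order too in D2 KO, D2 WT and B6 WT, but in B6 KO replicates 1 and 3 changed places. Their mean log2 signals (replicates 1, 2, 3) were 11.31, 11.41 and 11.32 in D2 KO, and 11.21, 11.05 and 11.47 in D2 WT. In B6 WT they were 11.67, 11.31 and 11.41, and in B6 KO 11.36, 11.59 and 11.37. The part of enterocyte content in the relation was not tested.

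In liver the arrays formed separate D2 and B6 clusters for Abcg5, so the relation was taken within each strain. In B6 liver r was 0.831 over 6 arrays (exact permutation p = 0.0458, adjusted 0.0611) and 0.456 without the 2 farthest arrays. In D2 liver r was -0.668 (0.147) and rho -0.829 (0.0583), and r was 0.00471 without the 2 farthest arrays, so that both relations rest on those arrays. The order of the 3 arrays was the same for both transcripts in 1 of 4 liver groups. Over the 12 liver arrays Abcg8 ranked 2229 of 5969 genes in likeness to Abcg5 (r = 0.168).

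**Figure D5:**
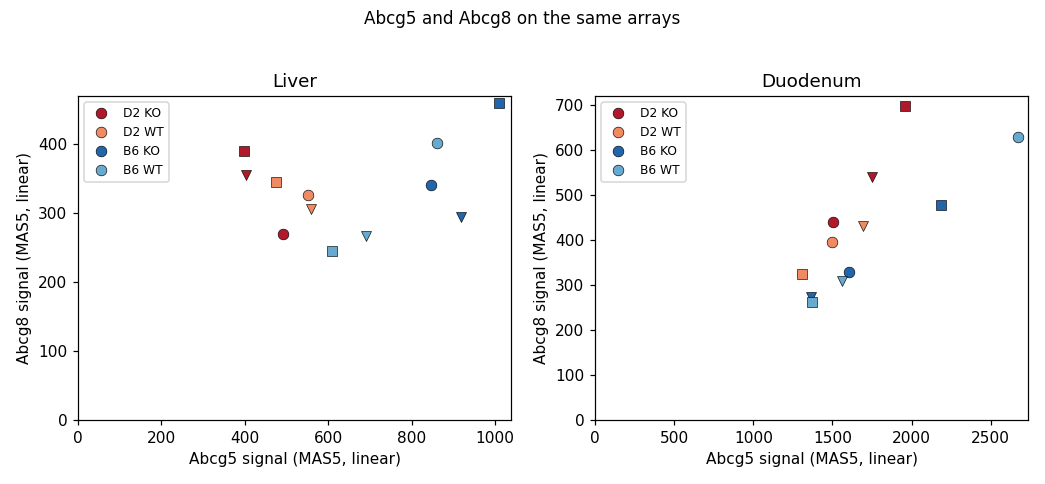
Signal of Abcg8 (y axis, MAS5, linear) against that of Abcg5 (x axis, MAS5, linear) on the same arrays, in liver and duodenum, with 1 point per array and colours for the 4 groups. In duodenum the points run from lower left to upper right (r of log2 signal 0.80, n = 12), and in liver the D2 points lie to the left of the B6 points.

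Other genes of bile acid, sterol and drug handling were counted from a list of 61, of which 50 were measured. The list was chosen with earlier results of these data known, so the shares given for it are descriptions and not a test of enrichment. In D2 KO livers 2 rose and 4 fell (12% of the 50, against 3.3% of all genes), with a median log2 change of 0.03, against 0.02 over all genes. Slco1a4, a carrier of the same family as Slco1a1, fell to a mean of 177 ± 10.9 in D2 KO livers, against 583 ± 24.4 in D2 WT livers (SD, n = 3 each), a log2 difference of -1.72 (limma adjusted p = 0.00126). Slco1a4 and Slco1a1 therefore changed in opposite directions. Cyp7b1, the oxysterol hydroxylase of the alternative bile acid pathway, rose to 4398 ± 1541 in D2 KO livers, against 806 ± 328 in D2 WT livers (log2 difference 2.45, adjusted p = 0.00882). Cyp39a1, a further oxysterol hydroxylase, fell by 2.53 on the log2 scale (adjusted p = 0.00433) and Pltp, the phospholipid transfer protein, fell to 318 ± 124 in D2 KO livers, against 814 ± 159.8 in D2 WT livers (0.0087). Of the 11 measured nuclear receptors and coregulators, among them Nr1h4, none was called in D2 KO liver by limma, with 5 at an unadjusted p under 0.05.

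In B6 KO livers none of the 50 was called in limma, with 9 at an unadjusted p under 0.05. Between the wild-type livers 1 of the 50 was higher and 3 were lower in D2 (8%, against 5.04% of all genes). Slco2b1, an anion carrier, averaged 285 ± 40.7 in D2 WT and 659.8 ± 55.1 in B6 WT livers, a log2 difference of -1.22 (limma adjusted p = 6.48e-05). Cyp7b1 averaged 806 ± 328 in D2 WT and 4004 ± 361 in B6 WT livers, a log2 difference of -2.38 (0.00134). Fgfr4, the liver receptor of the gut hormone FGF15, was the 1 higher in D2 WT livers (0.73, 0.00345), and the drug transporter Abcc6 was lower (-0.84, 0.00815). In D2 KO duodenum 2 of the 50 rose and none fell (4%, against 0.484% of all genes), namely the transporter Abcc10 (72.4 ± 7.83 in D2 KO and 37.9 ± 8.57 in D2 WT) and the HDL receptor Scarb1 (533 ± 29.4 and 315 ± 58.8, log2 difference 0.77, adjusted p = 0.0841). In B6 KO duodenum none of the 50 was called in limma, with 5 at an unadjusted p under 0.05. Between wild-type duodena Nfe2l2 (log2 difference 0.72) and Ppara (1.07) were higher in D2 WT and Nr1h4 (-0.47) was lower (6%, against 3.31% of all genes). Of the 50, 36 were higher and 10 lower in D2 WT liver than in D2 WT duodenum (92%, against 51.2% of all genes). Among the 36 were all 13 of bile acid synthesis and conjugation. The filter took a signal in either tissue, so a gene near background in duodenum could be called only as higher in liver.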

How the data were processed

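RNA of liver and duodenum from 12 male mice was labelled and put on 24 Affymetrix whole-genome mouse arrays. The authors computed the deposited intensity values, which are linear MAS5 signals (version not given in the sources used here) scaled to a common mean of 100. Experiment files gave the hybridization runs. Log2 of each signal was taken here without a pseudocount. Probe sets were kept where the third highest signal in liver or duodenum was at least 20, which left 28061 of 45101, with 64 AFFX controls left out. The 12 arrays of a tissue (4 groups), or all 24 (8 groups) for the tissue comparison, were fitted with limma 3.58.1 in R 4.3.3 (lmFit, eBayes with a mean trend), and p-values were adjusted by Benjamini-Hochberg over the probe sets kept. Knockout effects and their strain difference passed at an adjusted p up to 0.1, and strain and tissue differences up to 0.01. With 3 arrays against 3 an exact permutation p cannot go below 0.1, and the number of arrays limits the precision.

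Where a gene had several probe sets annotated to it alone, the brightest over all arrays stood for it. Every transporter was reported in every comparison. Of the related list up to 4 called genes with the smallest adjusted p were named per knockout or strain comparison, and 3 genes of most similar liver profile for each called transporter. The transporters and the lists were chosen with earlier results of these data known. Same-numbered arrays are not said to share a mouse, and their deviations from group means correlated at -0.158 to 0.116, so no pairing was used. The p-values of the tissue comparisons therefore ignore that the same mice gave both tissues. Motifs were searched with Python 3.11.15 and figures drawn with matplotlib 3.10.9.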

Additional observations from a re-analysis of the deposited data

Results flagged for a closer look

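Cyp7b1, a gene of the related list, was the 1 gene among the 10 transporters and the 50 measured genes of that list whose knockout effect in liver differed between the strains by a test of the difference itself. The D2 effect minus the B6 effect was 2.78 ± 0.568 on the log2 scale (SE, limma adjusted p = 0.0973). Nr1h4, the bile acid receptor of the same list, had a liver against duodenum difference in wild-type mice that was 0.93 ± 0.153 larger in D2 than in B6 on the log2 scale (SE, adjusted p = 0.00162), by the same kind of test. Groups of 3 arrays are too small for a test of single outlying arrays, so none was made.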

How the results depend on the processing

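Of the results of the 10 transcripts in 11 comparisons, 22 were called, and 11 of these 22 held under every alternative run while 11 were lost under at least 1. All 11 that held were liver against duodenum differences. They were those of Slc10a1, Slco1a1, Slco1b2, Abcb11 and Abcb4 in both strains and of Abcc3 in B6 WT. For Slc10a1, Slco1a1, Slco1b2 and Abcb11 the call followed from the filter. Every knockout and strain call was lost under at least 1 alternative. Of the 88 not called, 10 were called under at least 1 alternative, and 0 called results changed sign. In D2 KO against D2 WT liver the count of 4 became 0 when the spread was moderated without a mean trend and 2 with the run as a block, and lay between 1 and 5 on leaving out 1 array. In D2 WT against B6 WT liver the count of 1 became 0 without the trend, with the run as a block and at an adjusted p of 0.001, 2 with log2(signal + 16), with no filter and with a signal of at least 100, 3 with only the arrays compared, and lay between 0 and 2 on leaving out 1 array. In D2 WT against B6 WT duodenum the count of 1 became 0 with the run as a block. In liver against duodenum of D2 WT mice 9 became 5 with the run as a block. The count of 0 for the strain difference of the knockout effect in liver became 1 with log2(signal + 16), with no filter and with a signal of at least 100, and lay between 0 and 4 on leaving out 1 array. The count of 0 for the strain difference of liver against duodenum, a comparison added after the values were seen, became 1 with log2(signal + 16), and lay between 0 and 1 on leaving out 1 array. The cause was not tested.

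With a replicate block that count became 1 (Abcc2, 1.05, adjusted p = 0.0097), and Abcc2 also passed in liver against duodenum of B6 WT mice (-0.45, adjusted p = 0.00732). The replicate block changed no other call of the 10 transcripts. In the related list, the count of 6 in D2 KO liver became 3 with the run as a block, and the count of 2 in D2 KO duodenum became 0 with the run as a block and with the replicate block. In the same list the run as a block turned 4 into 2 between wild-type livers, 3 into 0 between wild-type duodena and 1 into 0 for the strain difference of the knockout effect in liver (Cyp7b1) and for that of liver against duodenum (Nr1h4, also 0 with the replicate block). The count for the knockout effect was 3 with no filter and with a signal of at least 100 and 2 with the replicate block, and the count of 0 in B6 KO liver was 1 with quantile normalization and the replicate block and 2 with a signal of at least 100. The acinar covariate outside the D2 knockout comparison, and the fit without D2 KO 2 and D2 KO 3 duodenum, were chosen after seeing the data. Leaving out 1 array assumes that the remaining arrays of its group vary like the other groups.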
